A study of Mus musculus with 7 samples.

Results

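Gata1, Gata2 and Gata3 encode the haematopoietic GATA zinc finger transcription factors, and Zfpm1 encodes FOG1, the cofactor that binds them. These 4 genes were taken by their symbols from a table of 20464 rows of gene expression in EML cells, a mouse multipotent precursor line sorted by the surface marker CD34. All 4 were among the 9259 genes tested. EML cells are a bone marrow line that depends on stem cell factor and was immortalised with a retrovirus carrying a dominant negative retinoic acid receptor alpha, so every library carries that alteration and comes from a single immortalised line. There were 4 CD34-negative and 3 CD34-positive libraries, all made from live cells left after Annexin V staining had removed apoptotic ones. All 7 libraries share the strain label C57BL/6, a bone marrow tissue label and an age label of postnatal day 14.7, and no treatment is labelled. The genotype label of the CD34-negative libraries reads CD43, and the titles, which read CD34, were followed. Besides a replicate number in the title, each library carries a number in its description. It was read as 3 for replicate 1 of both groups and 2 for replicate 2 of both groups. It was read as 4 for the remaining 3 libraries, which are CD34-positive replicate 3 and CD34-negative replicates 3 and 4. The descriptions of CD34-positive replicate 1 and CD34-negative replicate 4 read 3a and 4a. Taking these as 3 and 4 was a choice that the labels do not state. Libraries with the same description number give 4 same-number comparisons, with CD34-positive replicate 3 used in the last pair of them.

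GATA factors bind DNA at the core letters GATA through a pair of zinc fingers. GATA2 maintains haematopoietic stem and progenitor cells and acts in mast cells, and GATA1 takes its place at many shared sites as cells enter the erythroid and megakaryocytic lineages, an exchange known as the GATA switch. FOG1 binds the amino-terminal finger of GATA1, brings corepressors such as the NuRD complex to it, and is needed for that exchange in erythroid cells, while GATA3 directs T cells and innate lymphoid cells.

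The promoter windows of the 3 GATA genes are shown because 2 of them, Gata1 and Gata2, had lower values together in the CD34-positive libraries. The windows are RefSeq's, on GRCm38.p6, and run from 250 bases before to 50 bases after a start site, 5′ to 3′ on the gene's strand. They contain non-transcribed DNA and the first bases of the first exon. Capitals mark every match to a GATA hexamer (the letters GATA with A or T before them and A or G after them) or to CACCC, the core of the element bound by KLF1 and related factors, on either strand, so that GGGTG is CACCC on the opposite strand. Gata1 lies on the minus strand at chrX:7967861-7968160, and Gata2 has 2 windows on the plus strand, at chr6:88193641-88193940 and chr6:88198414-88198713. Gata3 lies on the minus strand at chr2:9878551-9878850.
Gata1: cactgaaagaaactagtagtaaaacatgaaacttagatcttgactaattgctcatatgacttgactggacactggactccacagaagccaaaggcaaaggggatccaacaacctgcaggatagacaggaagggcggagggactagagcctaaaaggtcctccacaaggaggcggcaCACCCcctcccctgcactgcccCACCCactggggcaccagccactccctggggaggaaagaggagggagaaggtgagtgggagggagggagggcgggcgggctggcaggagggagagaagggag
Gata2, upstream start: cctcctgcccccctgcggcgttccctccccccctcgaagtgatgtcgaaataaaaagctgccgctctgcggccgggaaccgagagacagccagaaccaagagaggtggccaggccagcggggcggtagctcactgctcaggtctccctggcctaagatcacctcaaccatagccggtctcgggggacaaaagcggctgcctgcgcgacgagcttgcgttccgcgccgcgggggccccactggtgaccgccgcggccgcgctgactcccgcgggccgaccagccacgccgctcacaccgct
Gata2, downstream start: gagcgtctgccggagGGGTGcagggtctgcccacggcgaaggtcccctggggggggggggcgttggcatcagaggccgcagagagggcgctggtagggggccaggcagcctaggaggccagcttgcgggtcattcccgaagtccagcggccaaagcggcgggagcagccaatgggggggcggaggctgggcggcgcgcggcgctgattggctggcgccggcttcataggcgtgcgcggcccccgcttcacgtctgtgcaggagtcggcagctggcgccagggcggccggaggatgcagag
Gata3: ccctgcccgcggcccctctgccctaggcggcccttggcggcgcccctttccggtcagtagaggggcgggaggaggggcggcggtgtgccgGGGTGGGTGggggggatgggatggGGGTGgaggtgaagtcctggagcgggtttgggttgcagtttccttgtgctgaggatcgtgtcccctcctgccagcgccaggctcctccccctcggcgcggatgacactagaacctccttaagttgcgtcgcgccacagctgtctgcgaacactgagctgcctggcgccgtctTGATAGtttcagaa

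The Gata1 window held 2 CACCC matches, beginning 74 and 52 bases before the start site, and no GATA hexamer. Neither Gata2 window held a GATA hexamer, and the downstream one held 1 CACCC match. The Gata3 window held 1 GATA hexamer, TGATAG, 36 bases after the start site, and 3 CACCC matches. The Zfpm1 window, on the plus strand at chr8:122281891-122282190, held 3 CACCC matches and no GATA hexamer. Among all 32851 windows of 27025 genes, 29.76% held a GATA hexamer and 57.52% held CACCC. The windows also differed in base composition, with 57.33% G and C at Gata1 against 67.33% to 73.67% at the other 3 genes and a median of 52.67% over all windows. The observed to expected ratio of CpG was 0.167 at Gata1, 0.90 and 0.76 at Gata2, 0.658 at Gata3 and 0.956 at Zfpm1, beside a median of 0.384. These matches describe letters in a short window and are not binding sites. Haematopoietic enhancers of these genes lie elsewhere, and the expression table has 1 row per gene, so transcripts from the separate Gata2 starts could not be told apart.

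Expression is given in FPKM, fragments scaled to transcript length and to the mapped fragments of the library, a unit that allows levels of different genes to be compared per length. The number of genes at 1 FPKM or more was 8606 to 9117 per library. The 3 libraries numbered 4 stood apart: ribosomal protein genes held 2.25% to 4.15% of their summed FPKM and 27.7% to 37.2% in the other 4, and rows of small RNAs (symbols beginning Mir or Snor) held 8.0% to 39.5% against 0.0644% to 0.300%. Cd34, the sorted marker, was listed at 147, 256 and 153 FPKM in the CD34-positive libraries. In the CD34-negative libraries, in replicate order, it was listed at 91.8, 19.3, 2.67 and 6.02 FPKM. CD34-negative replicate 1 was thus the nearest of its group to the CD34-positive libraries. Results are therefore also given without the number-3 pair, which holds that library, and without the number-4 libraries. The precursor markers Kit, Ly6a and Cd34 summed to 555 to 591 FPKM in the CD34-positive group and to 75.9 to 533 FPKM in the CD34-negative group.

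**Figure D1:**
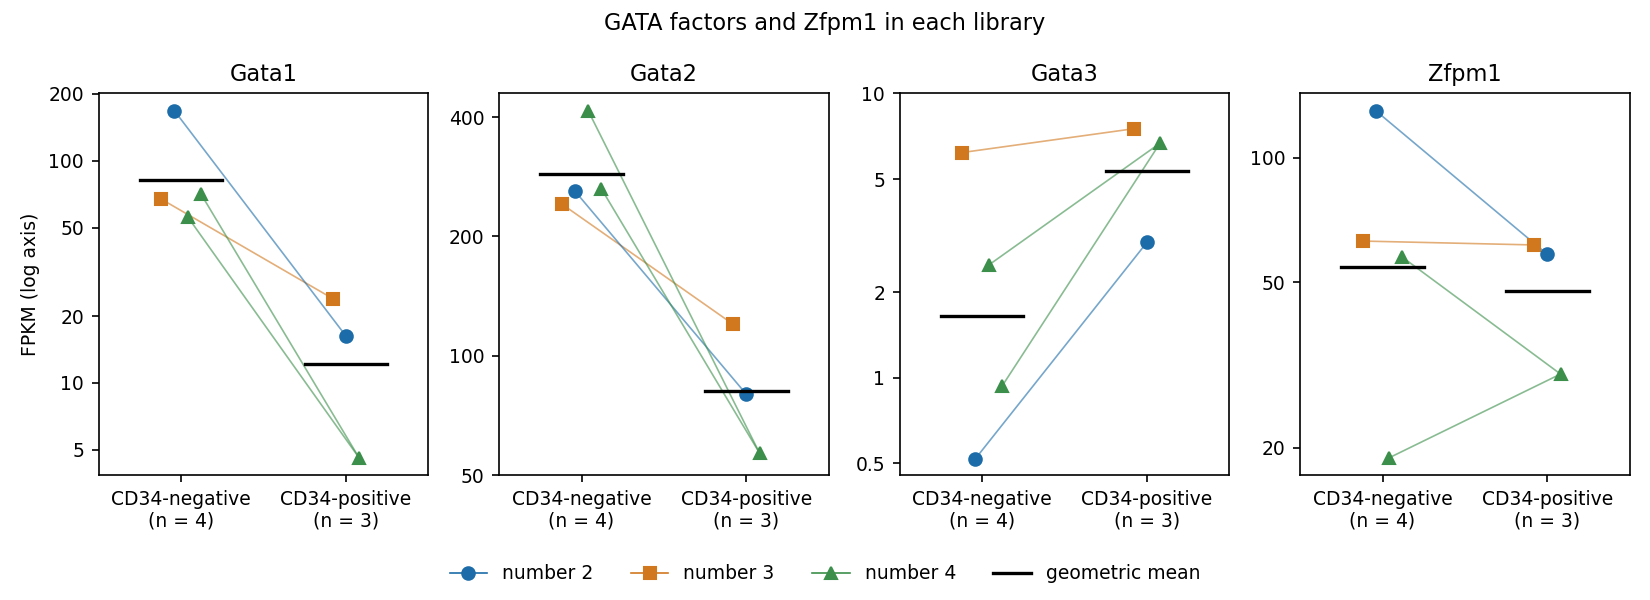
FPKM of Gata1, Gata2, Gata3 and Zfpm1 in each library, on log axes. Points are libraries, coloured by description number with lines joining equal numbers, and bars are group geometric means. The 3 CD34-positive libraries sit below all 4 CD34-negative ones for Gata1 and Gata2, while Gata3 and Zfpm1 overlap between the groups.

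Gata1 and Gata2 had lower values in every CD34-positive library than in any CD34-negative one, Gata3 had higher values in each same-number comparison at a low level, and Zfpm1 overlapped between the groups. A group comparison across all 9259 genes with limma, on log2(FPKM + 1) with Benjamini-Hochberg adjustment, called 0 genes higher and 0 lower at an adjusted p under 0.05 (0.0% in each direction), and so none of the 4. At an unadjusted p under 0.05 it listed 313 genes as higher (3.38%) and 210 as lower (2.27%), Gata1 and Gata2 among the latter. Of the 4 genes, 2 did not overlap between the groups, both in the lower direction, beside 5.68% of all tested genes in either direction and 3.01% in the lower one. In bulk RNA, fewer cells expressing a gene and less RNA per cell cannot be told apart. Nothing in the labels says that the replicates are separate cultures. The p-values therefore describe library-to-library spread only, and that spread may be technical.

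Gata1, the master regulator of erythroid, megakaryocytic, mast cell and eosinophil development, was listed at 67.1, 167, 55.8 and 70.9 FPKM in CD34-negative replicates 1 to 4. In CD34-positive replicates 1 to 3 it was listed at 24.0, 16.3 and 4.61 FPKM. The highest CD34-positive library thus stayed well below the lowest CD34-negative one. The group means were 90.3 ± 51.7 FPKM (SD, n = 4) and 14.9 ± 9.74 FPKM (SD, n = 3), a 6.04-fold lower mean in CD34-positive cells. The difference on the log2(FPKM + 1) scale was -2.62 (SE 0.59, 95% interval -3.96 to -1.29), with a limma adjusted p of 0.532. Within equal numbers it was -1.45 for number 3, -3.29 for number 2, and -3.34 and -3.68 for number 4. All 4 comparisons were thus in the lower direction, as they were for 18.9% of all tested genes. The smallest of them is the number-3 pair, whose CD34-negative library is the one richest in Cd34.

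Gata2, the factor of stem cells, progenitors and mast cells, had the highest FPKM of the 4 genes in each of the 7 libraries. It was listed at 242, 260, 415 and 264 FPKM in CD34-negative replicates 1 to 4 and at 120, 80.0 and 56.8 FPKM in CD34-positive replicates 1 to 3. The groups did not overlap, and CD34-negative replicate 3 stood above the others of its group. The means were 295 ± 80.7 FPKM (SD, n = 4) and 85.6 ± 32 FPKM (SD, n = 3), 3.45-fold lower in CD34-positive cells. On the log2(FPKM + 1) scale the limma difference was -1.80 (SE 0.46, 95% interval -2.86 to -0.75) with an adjusted p of 0.606. The same-number differences on that scale were -1.002 for number 3, -1.69 for number 2, and -2.85 and -2.20 for number 4. By rank of FPKM among 20142 listed genes, Gata2 stood at places 312, 367, 59 and 75 from the top in CD34-negative replicates 1 to 4. Replicates 3 and 4 are number-4 libraries, so the places mix kind of library with group. In CD34-positive replicates 1 to 3 Gata2 stood at places 668, 1127 and 817. It was lower there yet still among the more abundant messages, whereas Gata1 went from places 575 to 1263 to places 3293 to 7114.

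The description numbers were also used as a block, because same-number libraries deviated together from their group means. With the block, limma gave -2.82 (SE 0.38) for Gata1 and -1.82 (SE 0.31) for Gata2, each with an adjusted p of 0.0931, and again called 0 genes in either direction (0.0%). At an unadjusted p under 0.05 the blocked comparison listed 1188 genes as higher (12.8%) and 846 as lower (9.14%). Leaving out 1 library changed these calls. In the blocked fit, leaving out either number-3 library leaves its partner with nothing to be compared with, so 3 of the fits that follow are 1 comparison with the same estimates. Without CD34-negative replicate 1 the blocked difference was -3.41 for Gata1 (adjusted p = 0.00802) and -2.17 for Gata2 (adjusted p = 0.0256), and both were then among 81 genes called lower (0.875%), beside 231 called higher (2.49%). Without CD34-positive replicate 1 the blocked values were -3.41 (adjusted p = 0.00785) and -2.17 (adjusted p = 0.0254), beside 230 genes called higher (2.48%) and 81 lower (0.875%). Without both libraries of that pair, 233 genes were called higher (2.52%) and 81 lower, Gata1 and Gata2 among the latter. Without CD34-negative replicate 3 they were -2.80 and -1.63, each with an adjusted p of 0.0436, among 125 genes called lower (1.35%), beside 32 higher (0.346%). Without the block, the difference of Gata1 was -3.17 without the number-3 pair (limma adjusted p = 0.373) and -2.37 without the number-4 libraries (adjusted p = 1.0). For Gata2 it was -2.16 (adjusted p = 0.578) and -1.35 (adjusted p = 1.0). The calls of both genes thus rested on which libraries entered and on the block. Both differences kept their direction in all 26 alternative fits. Leaving out libraries could not have turned that direction, because neither gene overlapped between the groups and all same-number differences were negative. Some of these fits also repeat an estimate by construction.

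Gata3, the factor of T cells and innate lymphoid cells, was listed at 6.20, 0.519, 2.49 and 0.932 FPKM in CD34-negative replicates 1 to 4. In the CD34-positive libraries it was listed at 7.52, 2.99 and 6.69 FPKM. The groups overlapped, because CD34-negative replicate 1 stood above CD34-positive replicate 2. The means were 2.54 ± 2.59 FPKM (SD, n = 4) and 5.73 ± 2.41 FPKM (SD, n = 3), and the limma difference on the log2(FPKM + 1) scale was 1.13 (SE 0.55, 95% interval -0.13 to 2.38, adjusted p = 0.994). The interval holds both 0 and a difference of several fold. Each same-number difference was in the higher direction, at 0.24 for number 3, 1.39 for number 2, and 1.14 and 1.99 for number 4. This was so for 21.4% of all tested genes. With the block the difference was 1.12 (SE 0.32, adjusted p = 0.120), and without CD34-negative replicate 1 and without a block it was 1.56 (adjusted p = 0.275). Without the number-3 pair it was 1.35 and without the number-4 libraries 0.82.

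Of 5 markers of T and innate lymphoid cells, Cd3e, Bcl11b and Thy1 were listed at 0 in all 7 libraries. The 5 together summed to 0.132 to 3.45 FPKM in CD34-negative libraries and 0.0945 to 5.44 FPKM in CD34-positive ones, nearly all of it from Il7r. Il7r encodes a cytokine receptor chain of lymphoid precursors. The part of such cells in the values of Gata3 was not tested further.

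Zfpm1, which encodes FOG1, was listed at 62.9, 130, 18.9 and 57.5 FPKM in CD34-negative replicates 1 to 4. In the CD34-positive libraries it was listed at 61.6, 58.4 and 30.1 FPKM. The CD34-positive values lay inside the range of the CD34-negative ones, whose extremes were replicates 2 and 3. The means were 67.2 ± 46.0 FPKM (SD, n = 4) and 50.02 ± 17.4 FPKM (SD, n = 3), and the limma difference on the log2(FPKM + 1) scale was -0.20 (SE 0.62, adjusted p = 1.0). Its 95% interval, -1.61 to 1.21, allows a change of more than 2-fold in either direction, so the data do not show that FOG1 message was alike in the groups. Same-number differences were -0.03 for number 3, -1.14 for number 2, and 0.64 and -0.91 for number 4, and the last pair share their CD34-positive library. The difference was -0.31 without the number-3 pair and -0.58 without the number-4 libraries. The direction turned without CD34-negative replicate 2, at 0.21, and without CD34-positive replicate 3, at 0.13.

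The order of the 4 genes by FPKM differed between the groups. In all 4 CD34-negative libraries the order was Gata2, Gata1, Zfpm1 and Gata3. In all 3 CD34-positive libraries Zfpm1 stood above Gata1, in the order Gata2, Zfpm1, Gata1 and Gata3 in replicates 1 and 2. In CD34-positive replicate 3 Gata3, at 6.69 FPKM, also stood above Gata1, at 4.61 FPKM. Neighbours in the order were not always apart beyond their spread: the CD34-negative ranges of Gata1 (55.8 to 167 FPKM) and Zfpm1 (18.9 to 130 FPKM) overlapped, as did the CD34-positive ranges of Gata2 (56.8 to 120 FPKM) and Zfpm1 (30.1 to 61.6 FPKM). Gata1 (4.61 to 24.0 FPKM) and Gata3 (2.99 to 7.52 FPKM) also overlapped in the CD34-positive group.

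A ratio of 2 genes within a library does not depend on how the library was scaled. The Gata1 to Gata2 ratio of FPKM was 0.278, 0.643, 0.134 and 0.269 in CD34-negative replicates 1 to 4 and 0.200, 0.203 and 0.0811 in CD34-positive replicates 1 to 3. Gata2 was thus the more abundant of the pair per length in every library, and the groups overlapped because CD34-negative replicate 3 had a low ratio. The group difference of the log2 ratio was -0.93, with a two-sided exact permutation p of 0.286 over 35 assignments of the libraries (0.286 adjusted over the 3 ratios examined). Within equal numbers the ratio was lower in the CD34-positive library each time, 1.39-fold for number 3, 3.16-fold for number 2, and 1.66-fold and 3.31-fold for number 4. On the log2 scale the difference was -1.15 without the number-3 pair and -1.07 without the number-4 libraries, where exact permutation gives p values of 0.400 and 0.333. Leaving out CD34-negative replicate 2 gave -0.54, and leaving out CD34-positive replicate 3 gave -0.49.

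The ratio of Zfpm1 to Gata1 separated the groups. It was 0.938, 0.775, 0.338 and 0.812 in CD34-negative replicates 1 to 4 and 2.57, 3.59 and 6.52 in CD34-positive replicates 1 to 3. All CD34-negative values lay below 1 and all CD34-positive values above it. The geometric means were 0.668 and 3.92, 5.87-fold apart, a difference of 2.55 in the log2 ratio with a two-sided exact permutation p of 0.0571, the smallest that 4 against 3 libraries allow (0.0857 adjusted over the 3 ratios). Within equal numbers the ratio of Zfpm1 to Gata1 was higher by 2.74-fold for number 3, 4.64-fold for number 2, and 19.3-fold and 8.04-fold for number 4. The log2 difference was 3.02 without the number-3 pair and 1.83 without the number-4 libraries. With CD34-negative replicates 3 and 4 averaged as 1 sample it was 2.37 (exact permutation p = 0.1, 0.15 adjusted). The permutation treats all libraries as exchangeable, although same-number libraries deviated together from their group means. Since Gata1 itself separated the groups, this ratio is not independent of the values of Gata1 above. Ratios of genes outside the 4 to Gata1 were not examined, so the separation is not shown to be particular to Zfpm1.

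The Zfpm1 to Gata2 ratio was 0.260, 0.498, 0.0455 and 0.218 in CD34-negative replicates 1 to 4. In CD34-positive replicates 1 to 3 the ratio was 0.513, 0.731 and 0.529. The groups did not overlap, but only a narrow gap parted CD34-negative replicate 2 from CD34-positive replicate 1. The log2 ratio differed by 1.62, a 3.08-fold difference of the geometric means, with the same exact permutation p of 0.0571 (0.0857 adjusted). Within equal numbers it was 1.97-fold, 1.47-fold, 11.6-fold and 2.43-fold higher. The widest of these rests on CD34-negative replicate 3, without which the log2 difference was 0.94. It was 1.87 without the number-3 pair and 0.77 without the number-4 libraries. As Gata2 itself separated the groups, this ratio is not independent of the values of Gata2 above. Ratios of genes outside the 4 to Gata2 were not examined either.

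**Figure D2:**
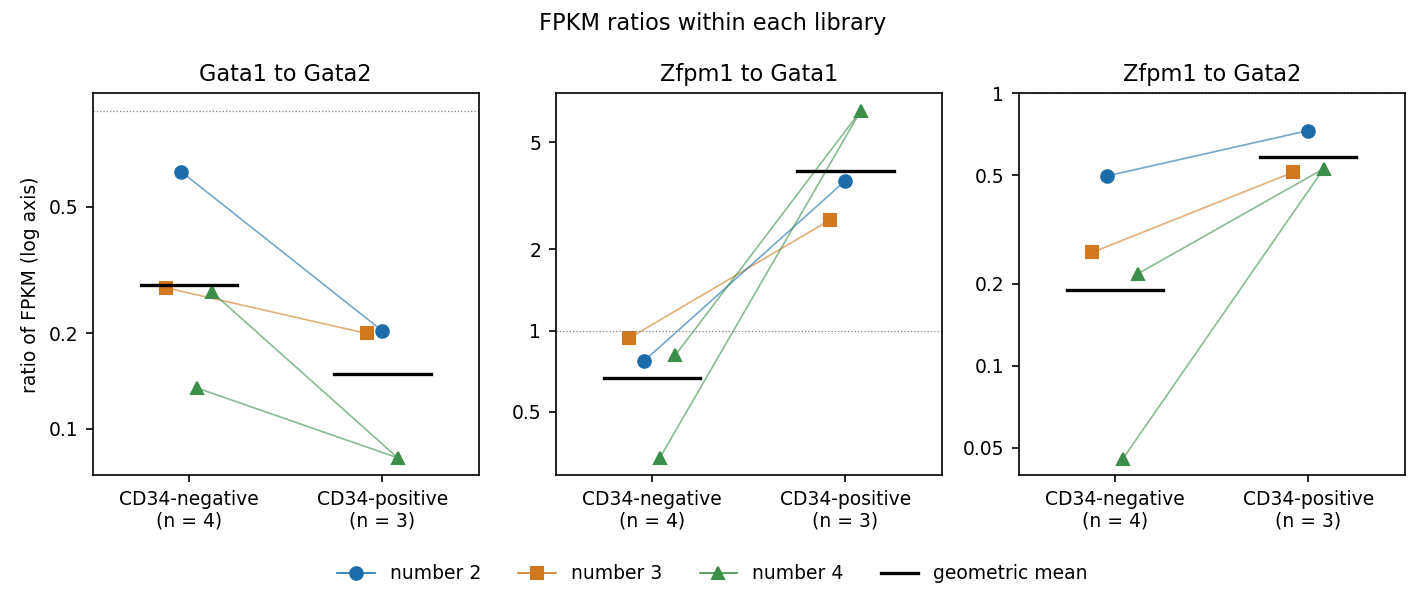
FPKM ratios of Gata1 to Gata2, Zfpm1 to Gata1 and Zfpm1 to Gata2 in each library, on log axes with a dotted line at 1 where it falls inside the axis; points are libraries, coloured by description number with lines joining equal numbers, and bars are geometric means. The Gata1 to Gata2 ratios overlap between the groups, while each Zfpm1 to Gata1 ratio is below 1 in the 4 CD34-negative libraries and above 1 in the 3 CD34-positive ones.

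Summed FPKM of Gata1, Gata2 and Gata3 give the total GATA factor message per length. The sum was 315, 428, 474 and 336 FPKM in CD34-negative replicates 1 to 4 and 152, 99.2 and 68.1 FPKM in CD34-positive replicates 1 to 3. The means were 388 ± 75.4 FPKM (SD, n = 4) and 106 ± 42.2 FPKM (SD, n = 3), and the groups did not overlap. Gata2 supplied 60.8% to 87.7% of the sum in CD34-negative and 79.2% to 83.4% in CD34-positive libraries. Its share overlapped between the groups even though its level did not. The share of Gata1 was 11.8% to 39.1% in CD34-negative and 6.76% to 16.4% in CD34-positive libraries. Gata3 supplied 0.121% to 1.97% in CD34-negative and 3.02% to 9.82% in CD34-positive libraries, without overlap. Its share rests on the sum, which was smaller in the CD34-positive group.

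**Figure D3:**
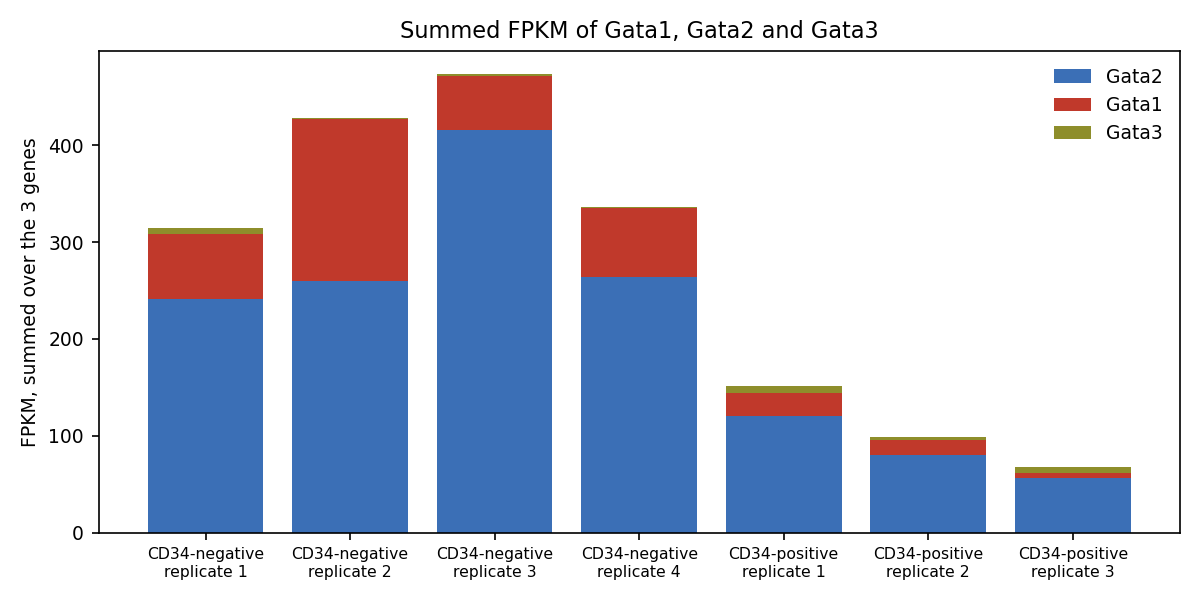
Summed FPKM of Gata2, Gata1 and Gata3 in each library, stacked from 0; each bar is 1 library. The CD34-negative bars reach 315 to 474 FPKM and the CD34-positive bars 68.1 to 152 FPKM, with Gata2 the largest section of each.

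No further GATA family gene reached the minimum for testing. Gata4, Gata5 and Gata6, which act in heart, gut and other tissues, were listed at 0 in all 7 libraries. Trps1, an atypical GATA-type repressor, was listed at 0.0261 to 0.568 FPKM. Zfpm2, which encodes FOG2, the relative of FOG1 in heart and gonad, was listed at 0 except for 0.0075 FPKM in CD34-negative replicate 4.

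Reads at the 4 loci may come from more than 1 transcript. RefSeq places the long noncoding RNA loci Gm39488 and Gm52419 over Gata1, Gm38708 over Gata2, 4930412O13Rik and 9230102O04Rik over Gata3, and Gm39269 over Zfpm1. Whether the authors' counting used strand is not given in the sources used here. Reads from these loci therefore cannot be told apart from the genes' own. The one of them with a row, 4930412O13Rik, was listed at 0 throughout. The nearest listed genes on the lower-coordinate side of Gata1 and Gata2 did not have lower means in the CD34-positive libraries. Values of Glod5 and Dnajb8, on the other side of Gata1 and Gata2, are not given here. Hdac6, beside Gata1, averaged 7.42 FPKM in CD34-negative and 11.7 FPKM in CD34-positive libraries, and Rpn1, beside Gata2, averaged 107 and 137 FPKM.

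Among 19 tested partners that GATA factors meet in the TAL1 complex and at shared sites, 0 did not overlap in the higher direction and 2 in the lower one, beside 2.67% and 3.01% of all genes. The median difference was -0.02 on the log2(FPKM + 1) scale, beside 0.09 over all tested genes, and it took either sign when single libraries were left out (-0.21 to 0.14). The 2 were Klf1 and Gfi1b. Klf1, the erythroid activator that binds CACCC elements, was listed at 29.2, 175, 12.1 and 53.6 FPKM in CD34-negative and 5.38, 3.10 and 0.427 FPKM in CD34-positive libraries, a difference of -3.72 (limma adjusted p = 0.532). Gfi1b, a repressor of the erythroid and megakaryocytic lineages, was listed at 129, 280, 73.8 and 129 FPKM and at 59.6, 57.3 and 25.4 FPKM. Both had their highest value in CD34-negative replicate 2, the library in which Gata1 was also highest. Tal1, the core of the complex, averaged 139 ± 16.2 FPKM (SD, n = 4) and 132 ± 10.98 FPKM (SD, n = 3), a difference of -0.07 with a 95% interval of -0.92 to 0.77. Lyl1, the relative of Tal1 found in progenitors, had higher values in CD34-positive libraries in each same-number comparison, at 71.1, 66.0 and 44.7 FPKM against 51.0, 33.03, 15.8 and 19.2 FPKM, with CD34-negative replicate 1 inside the CD34-positive range.

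The corepressors that FOG1 recruits gave no gene without overlap. Of 15 tested NuRD and CtBP genes, 3 (Hdac2, Rbbp4 and Rbbp7) were higher and 5 (Mta1, Mta2, Mta3, Mbd2 and Ctbp1) lower in all same-number comparisons, beside 21.4% and 18.9% of all genes, and the median difference was 0.07 (-0.12 to 0.25 with single libraries left out). Chd4, the NuRD remodeller, averaged 121 and 133 FPKM. Hdac2, a NuRD deacetylase, differed by 0.46 (95% interval -0.33 to 1.25). Of the members of this set, 0 had an unadjusted limma p under 0.05 in either direction, and with the block 1 did, Mbd2 at -0.57 (adjusted p = 0.150).

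Genes that GATA factors regulate, grouped by lineage, did not all follow Gata1 and Gata2. These lists, like those of partners and corepressors above, were written with earlier results of these data known. Their counts beside the shares of all genes are therefore descriptions and do not measure enrichment. Of 24 tested erythroid genes, 12 were lower without overlap and 0 higher, beside 3.01% and 2.67% of all genes, and their median difference was -1.28 (-1.65 without CD34-negative replicate 1 and -1.59 without the number-4 libraries). Klf1 is counted here as well as among the partners. Kel, a blood group protease, averaged 6.33 FPKM in CD34-negative and 0.11 FPKM in CD34-positive libraries. Alad, an enzyme of haem synthesis, averaged 33.7 and 4.004 FPKM. Hbb-b1, an adult beta globin, overlapped between the groups, at 1.40 to 624 FPKM in CD34-positive and 30.4 to 1405 FPKM in CD34-negative libraries. The 5 erythroid markers summed to 21.8 to 105 FPKM in CD34-negative and 2.10 to 10.6 FPKM in CD34-positive libraries, so erythroid marker level moved with Gata1, and its part in the difference of Gata1 was not tested.

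Of 16 tested genes of mast cells, basophils and eosinophils, 6 were lower without overlap and 0 higher, beside 3.01% and 2.67% of all genes, with a median difference of -1.67 (-1.99 without CD34-negative replicate 1, -0.87 without CD34-negative replicate 3 and -1.41 without the number-4 libraries). The 6 were Hdc, Ms4a2, Cma1, Mcpt1, Mcpt2 and Mcpt4, and the near-identical sequences of mast cell proteases make the last 4 uncertain. Hdc, the enzyme that makes histamine, averaged 224 ± 250 FPKM (SD, n = 4) and 7.52 ± 4.76 FPKM (SD, n = 3). Ms4a2, the beta chain of the IgE receptor, was listed at 13.1, 17.8, 58.4 and 19.8 FPKM in CD34-negative and 3.87, 1.86 and 0.642 FPKM in CD34-positive libraries. Its highest library, CD34-negative replicate 3, was also the highest of Gata2. Cpa3, a mast cell carboxypeptidase that early progenitors also express, overlapped, with means of 1466 and 2400 FPKM. The summed mast cell markers, which Cpa3 dominates, were at 1602 to 8657 FPKM in CD34-negative and 2104 to 3194 FPKM in CD34-positive libraries, and the part of mast cell content in the difference of Gata2 was not tested.

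Of 12 tested megakaryocyte genes, 3 (Gp1ba, Gp5 and P2ry1) were lower without overlap and 0 higher, beside 3.01% and 2.67% of all genes. The median difference was 0.28, with 0.50 without CD34-negative replicate 1, 0.16 without CD34-negative replicate 2 and 0.15 without CD34-positive replicate 1. Gp5, a platelet glycoprotein, averaged 5.39 and 0.92 FPKM, whereas Pf4, a platelet chemokine, overlapped between the groups at 313 ± 277 FPKM (SD, n = 4) and 242 ± 208 FPKM (SD, n = 3). The megakaryocyte markers summed to 261 to 906 and 233 to 763 FPKM. This set thus had members with values lower than all others of the opposite group but no shift of its median in that direction.

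Of 15 tested progenitor genes bound by GATA2, 3 were higher without overlap and 0 lower, beside 2.67% and 3.01% of all genes. In all same-number comparisons 10 were higher and 2 lower, beside 21.4% and 18.9% of all genes. The median difference of these 15 was 0.90, and 0.31 without CD34-negative replicate 2. The 3 were Cd34, on which the cells were sorted, Ly6a and Gfi1, and the 2 were Tal1 and Samd14. Ly6a, which encodes Sca-1, averaged 24.0 and 161 FPKM, and Gfi1, a repressor of stem and myeloid cells, 0.64 and 2.87 FPKM. Kit, the receptor of stem cell factor and a GATA2 target in progenitors and mast cells, overlapped with means of 266 and 222 FPKM and a difference of 0.01 (95% interval -1.97 to 1.99). Samd14, which has an intronic GATA site, was the only one of these 15 to have an unadjusted p under 0.05 in the lower direction, with a limma difference of -1.14 (adjusted p = 0.686).

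Of 20 genes that GATA3 works with in T cells and innate lymphoid cells, 8 were tested, of which 1 (Tcf7) was higher and 1 (Id2) lower without overlap, beside 2.67% and 3.01% of all genes. Tcf7, a T cell factor also active in EML cells, averaged 16.6 and 77.1 FPKM. Its values in CD34-negative replicates 1 to 4 were 56.9, 4.83, 1.26 and 3.53 FPKM, so that mean rests largely on replicate 1. Id2, an inhibitor of E proteins, averaged 178 and 26.8 FPKM. It was listed at 45.8, 77.3, 500 and 87.9 FPKM in CD34-negative replicates 1 to 4, so its mean there rests largely on replicate 3. Neutrophil and monocyte genes, a lineage in which GATA1 is silent, had a median difference of 1.34 over 8 tested members, with 1 (Ctsg) higher without overlap and 0 lower, beside 2.67% and 3.01% of all genes. Mpo, a granule enzyme, averaged 360 ± 524 FPKM (SD, n = 4) and 1355 ± 421 FPKM (SD, n = 3), and the groups overlapped. The neutrophil and monocyte markers summed to 39.3 to 1174 FPKM in CD34-negative and 904 to 1720 FPKM in CD34-positive libraries. Over all of these lists, 0 genes passed an adjusted p under 0.05 in the limma comparison or in the blocked one.

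**Figure D4:**
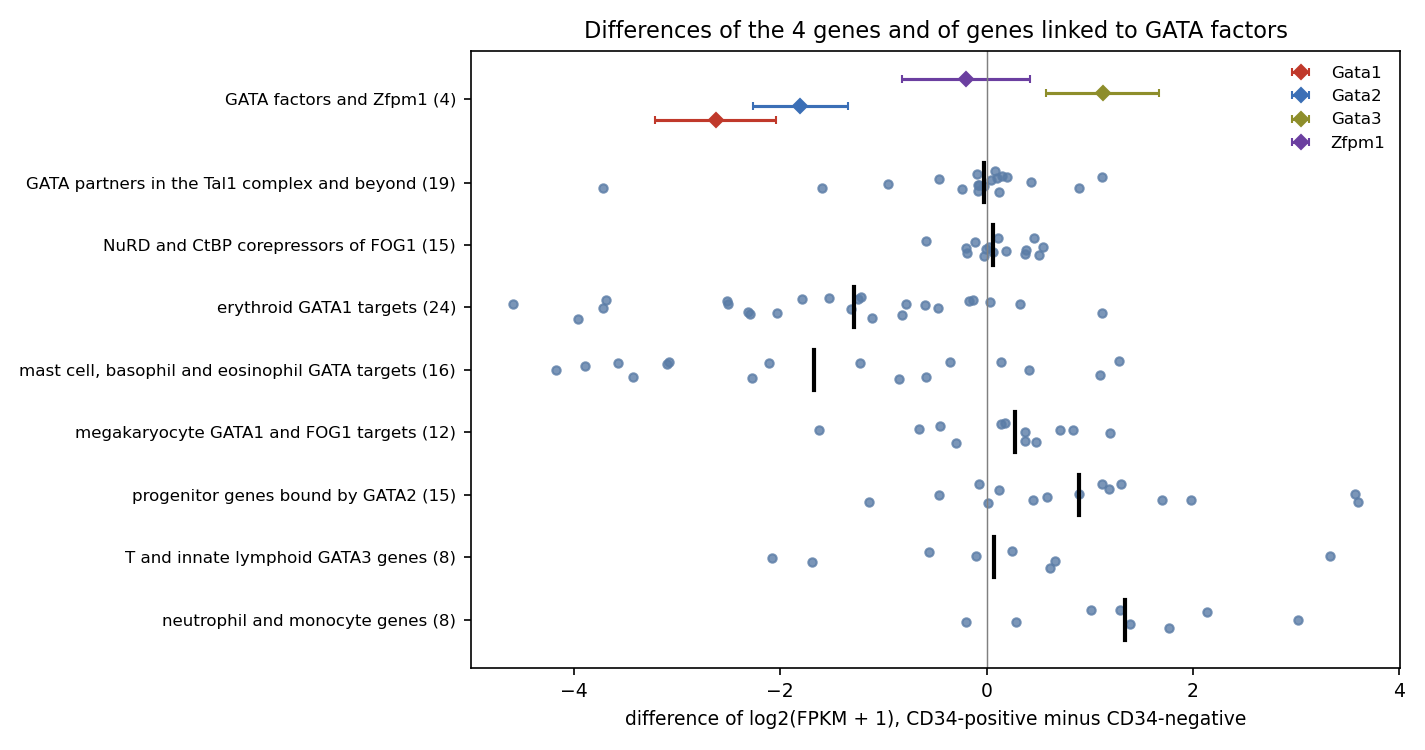
Differences between the groups (CD34-positive minus CD34-negative, log2(FPKM + 1) scale) for each tested gene of the lists; each point is a gene, each bar a list median, and the diamonds are the 4 genes with their SE. The medians of the erythroid list (-1.28) and the mast cell list (-1.67) lie below 0 and those of the progenitor (0.90) and neutrophil and monocyte (1.34) lists above it.

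The genes whose levels over the 7 libraries most resembled each of the 4 were found by Pearson correlation of log2(FPKM + 1) among 7248 genes with a mean of at least 5 FPKM. The 7 points share libraries and their group difference, so the values are descriptions. Closest to Gata1 were Fech, the last enzyme of haem synthesis (r = 0.99), Csrp3 (r = 0.99), Asb1 (r = 0.99), Slc41a3 (r = 0.98) and Klf13 (r = 0.98). Csrp3 was listed at 48.1, 86.2, 27.3 and 35.4 FPKM in CD34-negative and 9.69, 5.05 and 0.90 FPKM in CD34-positive libraries, the same order of libraries as Gata1 but for CD34-negative replicates 1 and 4. Among the closest to Gata2 were Ms4a2 (r = 0.99), Slc7a6, Prrc1 and Pitpnm2. Closest to Gata3 were Map4k4 (r = 0.99), Smad1, Ggta1, Pfkfb3 and Rasa3, and closest to Zfpm1 were Slc43a1 (r = 0.98), Dffb, Traf4, Pprc1 and Xrcc6. None of the genes named here was in more than 1 of the 4 sets.

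Among themselves the 4 genes varied unequally over the libraries. Gata1 and Gata2 had r = 0.88 over 7 libraries, and Gata1 and Zfpm1 r = 0.49. Gata2 and Zfpm1 had r = 0.02. Gata3 had negative values with each of the others, at -0.69 with Gata1, -0.54 with Gata2 and -0.38 with Zfpm1. With Cd34, r was -0.85 for Gata2, -0.64 for Gata1, 0.67 for Gata3 and 0.24 for Zfpm1, so Gata2 followed the sorted marker inversely more closely than Gata1 in these 7 values.

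**Figure D5:**
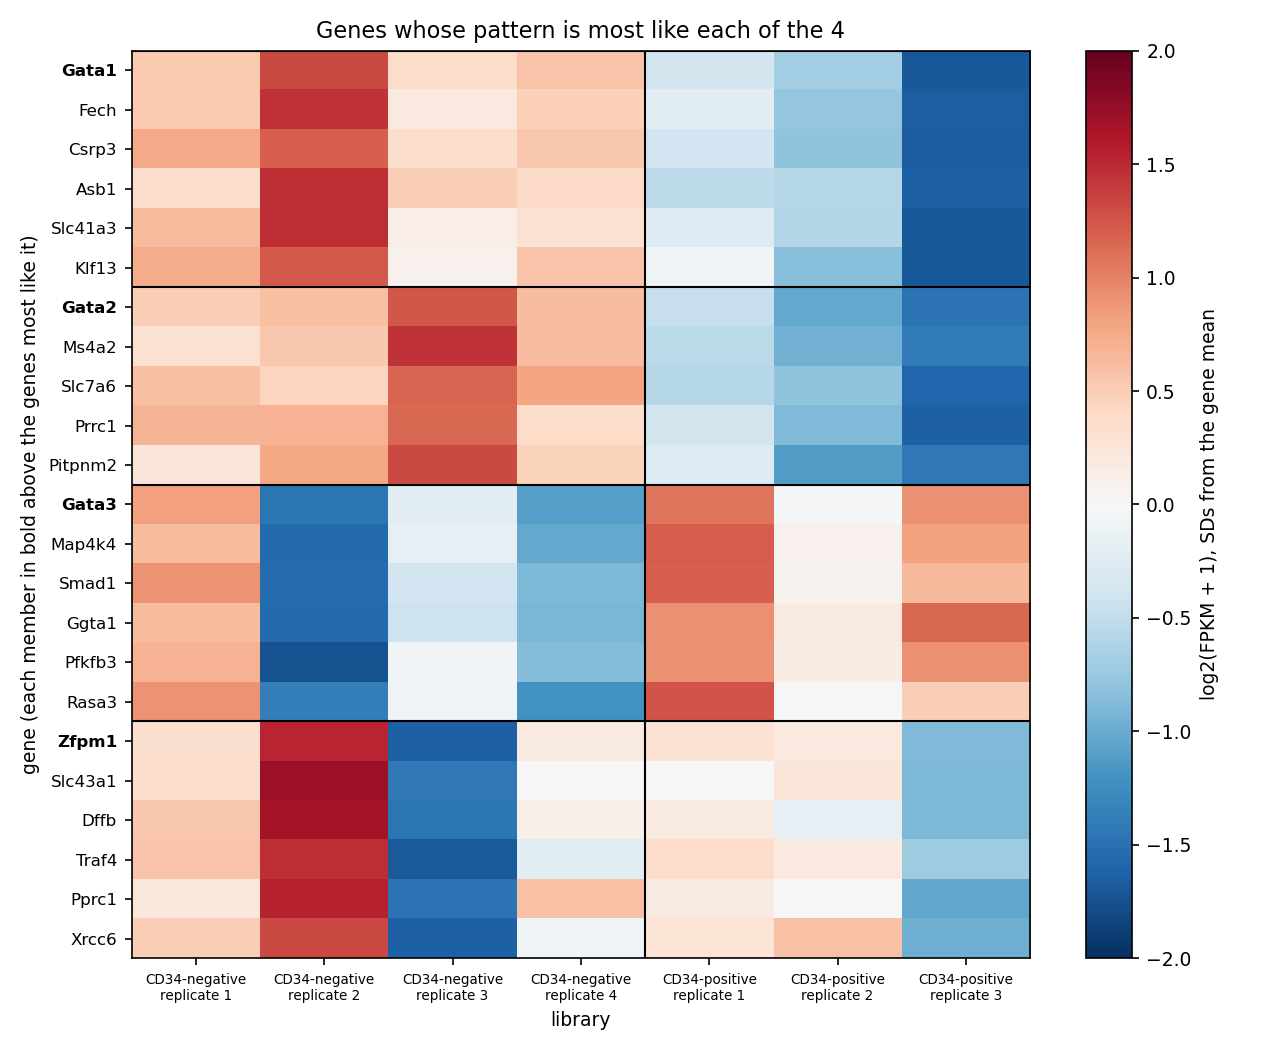
Levels of each of the 4 genes (bold) and of the genes most like it (4 for Gata2 and 5 for each of the others), in SDs of log2(FPKM + 1) from the gene's own mean; columns are libraries and the vertical line parts CD34-negative from CD34-positive. The sets of Gata1 and Gata2 are high in the CD34-negative libraries, with their peaks in replicates 2 and 3 respectively, and the set of Zfpm1 is highest in CD34-negative replicate 2 and lowest in CD34-negative replicate 3.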

How the data were processed

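RNA was measured by sequencing in 7 libraries, and the deposited table gives FPKM made by the authors, 1 value per gene symbol and library. The submitters' processing notes list TopHat2, TopHat and Cuffdiff without versions, and both mm9 and mm10 as builds, so the build of the table is not settled and no gene coordinates are taken with it. Read depth is not given by FPKM, so no counting interval could be given. From 20464 rows, 322 rows of 105 repeated symbols were left out, and the minimum for testing was 1 FPKM in no fewer than 3 libraries, met by 9259 genes. Groups followed the titles. limma 3.58.1 in R 4.3.3 compared log2(FPKM + 1) with a mean-variance trend, two-sided, with Benjamini-Hochberg adjustment and a threshold of 0.05. Folds on that scale understate the change of low genes. The comparison without a block was also run on simulated data in which libraries varied independently. That setting lacks the shared deviations of same-number libraries, so it does not cover the blocked fits. Ratios of FPKM were compared by exact permutation of the library labels.

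The 4 genes and all gene lists were chosen with earlier results of these data known. Genes named are the 4, Cd34, the 5 most like each of the 4 by correlation, the nearest listed genes, and from each list up to 4 genes of smallest p and 2 of highest mean; those named beyond this rule (Il7r, Samd14, the GATA relatives at 0, 4930412O13Rik and genes given only by name beside a list's count) were chosen after their values were seen. A few genes met this rule but are not reported here. Spi1, Sptb, Hbb-b2, Hba-a1 and Ahsp had no row under these symbols in the table used here, and Hba-a2 and Mecom were among the repeated symbols. Whether the description numbers pair the libraries was checked from how far their deviations from their own group's mean correlated, with r of 0.70 for number 3, 0.92 for number 2, and 0.82 and 0.85 for number 4, all above the limit set for a block. The number-4 libraries are also those with a low ribosomal protein share, so for them pairing and kind of library cannot be told apart. Alternatives changed the pseudocount, filter, scaling, block, estimation and libraries.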

Additional observations from a re-analysis of the deposited data

Results flagged for a closer look

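In 8 of 80 named genes, 1 CD34-negative library stood far from the other 3, judged by its gap to the nearest library as a share of the group's FPKM range. Chance flags about 1 group in 20, and 5.95% of all tested genes were flagged, so the number is given as a description. For Gata2 the share was 0.837, from CD34-negative replicate 3 at 415 FPKM, and without that library the group difference was -1.63 on the log2(FPKM + 1) scale.

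CD34-negative replicate 1 was the high one for Hlf (0.849), Cebpe (0.937) and Cdh5 (1.0). CD34-negative replicate 2 was set apart for Asb1 (0.889), where it was high, and for Chd4 (0.899), where it was low at 77.0 FPKM. CD34-negative replicate 3 was high for Il13 (0.876). CD34-negative replicate 4 was the only one with any value for Zfpm2 (1.0), at 0.0075 FPKM.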

How the results depend on the processing

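The directions of Gata1, Gata2 and Gata3 held in all 26 alternatives, with differences from -3.41 to -1.99, -2.29 to -1.35 and 0.81 to 1.59. For Gata1 and Gata2, leaving out libraries could not turn the direction, since the groups did not overlap and all same-number differences were negative. The same holds for Gata3 in the blocked fits, as all its same-number differences were positive. The replicate block gave -2.82 and -1.82 for Gata1 and Gata2 (limma adjusted p = 0.0931 each), 1.12 for Gata3 and -0.40 for Zfpm1. Leaving out 1 library at a time gave -3.07 to -1.99 for Gata1 and -2.08 to -1.55 for Gata2, and with the block -3.41 to -2.37 and -2.17 to -1.35. The blocked fits without CD34-negative replicate 1, CD34-positive replicate 1 or CD34-negative replicate 3 passed the threshold for both genes, the last at -2.80 and -1.63. The blocked fit without both number-3 libraries, chosen after seeing the data, also did, at -3.41 (adjusted p = 0.00802) for Gata1 and -2.17 (adjusted p = 0.0253) for Gata2. Leaving out either or both number-3 libraries gives the same blocked estimates by construction, since the remaining one has no partner. Why the calls differ from those of the full block was not tested. Zfpm1 ranged from -0.69 to 0.21 over single libraries left out, with 0.21 without CD34-negative replicate 2 and 0.13 without CD34-positive replicate 3.

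Counts of genes past the threshold were 0 in the main comparison in both directions. Leaving out 1 library gave 0 to 7 higher and 0 to 3 lower, and with the block 0 to 231 higher and 0 to 125 lower, with 32 higher without CD34-negative replicate 3 and 230 without CD34-positive replicate 1. The block without both number-3 libraries gave 233 and 81. The 3 ratios kept their direction in all 12 alternatives each. For the Zfpm1 ratios, whose groups did not overlap, leaving out libraries could not have turned the direction. With the replicate block, the mean within-number log2 differences were -1.12, 2.44 and 1.31 for Gata1 to Gata2, Zfpm1 to Gata1 and Zfpm1 to Gata2, each with an exact sign-flip permutation p of 0.25, the smallest that 3 numbers allow. Over the alternatives other than single libraries left out, the difference of the median gene lay between -0.08 and 0.10, the lowest under scaling to the summed FPKM without small RNAs, which was also chosen after seeing the data. The median differences of the partner, NuRD and CtBP, and lymphoid lists changed sign between alternatives, while those of the erythroid and mast cell lists stayed negative in all 26. With 4 and 3 libraries, no ratio could reach a p under 0.0571.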
